A study of Arabidopsis thaliana with 33 samples.

Results

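The 9 genes described here are regulators of the shoot stem cell niche of Arabidopsis thaliana. They were picked by locus from a table of 33400 loci: WUS (AT2G17950), CLV3 (AT2G27250), CLV1 (AT1G75820), STM (AT1G62360), KNAT1 (AT4G08150), KNAT2 (AT1G70510), KNAT6 (AT1G23380), BLH9 (AT5G02030) and PNF (AT2G27990). All 9 were found, and all 9 passed the filter on low counts. RNA was sequenced from hypocotyl explants of the wild type Col-0 (21 libraries) and of the mutant hy5-2 (12 libraries), which carries a lesion in HY5, a transcription factor of light signalling. Seedlings of both genotypes got a few hours of high light (40 µmol/m2/s) for germination and then low light (2 µmol/m2/s), all without dark periods, and were used at 7 days and 22 °C. Hypocotyls were sampled uncultured (T0), at day 4 of callus culture (CIM4), whose medium held kinetin, a cytokinin, at 0.1 mg/L with the auxin 2,4-D at 0.5 mg/L, and at day 4 or 8 of the following shoot culture (SIM4 and SIM8), whose medium held the cytokinin 2-iPA at 0.5 mg/L with the auxin IAA at 0.15 mg/L. Col-0 was cultured in either light and hy5-2 in high light. This gave 11 groups of 3 libraries: both genotypes at T0 in low light, and 3 arms at each of CIM4, SIM4 and SIM8. Light and genotype therefore both differ between hy5-2 cultures and Col-0 cultures in low light, medium and time in culture go together, and the step from T0 to CIM4 in hy5-2 includes a change of light.

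In the shoot meristem, WUS is made in an organizing centre and maintains the stem cells above it, which secrete the CLV3 peptide. CLV3 acts through receptors that include the kinase CLV1 and restrains WUS. The class I KNOX homeodomain proteins STM, KNAT1, KNAT2 and KNAT6 keep meristem cells undifferentiated, and they pair with BELL homeodomain proteins such as BLH9 (also called PENNYWISE) and PNF (POUND-FOOLISH). In hypocotyl culture, callus forms with properties of root primordia, and shoot meristems arise later on shoot induction medium.

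Libraries held from 7235763 to 21184356 counted reads. Levels below are CPM (counts scaled by TMM library size), as mean ± SD of 3 libraries. A gene is said to rise or fall where its two-sided adjusted p was under 0.05 in edgeR's quasi-likelihood test over 20842 genes, and changes are log2 fold changes ± SE. HY5 itself was at 30.8 ± 3.05, 44.0 ± 4.84 and 35.7 ± 5.76 CPM in Col-0 in high light at CIM4, SIM4 and SIM8, and at 3.51 ± 0.0198, 3.50 ± 0.267 and 2.65 ± 0.818 CPM in hy5-2 (n = 3 each), so the libraries carry the genotype of their labels. Summed CPM of 6 xylem markers ran from 648.8 to 859.9 at T0, and from 118.5 to 643.5 in culture. Summed CPM of 3 epidermis markers ran from 550.8 to 808.4 at T0 and from 12.7 to 64.5 on SIM. Of 3 markers of young leaves, FIL and YAB3 had 10 and 16 counts in T0 replicate 3 of Col-0. They had 11 and 15 in T0 replicate 3 of hy5-2, and 0 in the other 4 libraries of T0. Together with the third marker, KAN1, the sum at T0 was 36.08 to 50.51 CPM for the wild type and 36.41 to 44.53 for the mutant. In culture that sum ran from 3.48 to 12.85 CPM. KAN1 was therefore present at T0 also where FIL and YAB3 had 0 counts. STM was lowest of the T0 libraries of its genotype in both replicates 3. Each sample is bulk tissue, so more cells of a type and more RNA per cell cannot be told apart. The replicates are biological per the series text, without a statement of what was kept separate.

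The members fell into 3 patterns of level over the stages. WUS and CLV3 were at or near 0 counts at T0 and CIM4 and appeared on SIM. STM, CLV1, KNAT1 and KNAT2 were highest in the uncultured hypocotyl. KNAT6 and BLH9 were present throughout and had their highest means at SIM8, except KNAT6 in low light, whose highest mean was at SIM4, whereas PNF was highest in callus and lowest at SIM4. From T0 to CIM4 in Col-0 in low light, 2 of 9 members rose and 5 fell, against 79.1% of all tested genes that changed in either direction, and in hy5-2 the same counts stood against 80.9%. From CIM4 to SIM4, 5 rose and 1 fell in Col-0 in low light (43.9% of all genes changed), 6 rose and 1 fell in Col-0 in high light (49.0%), and 6 rose and 1 fell in hy5-2 (53.1%). From SIM4 to SIM8, 2 rose in low light (14.9%), 6 in high light (22.4%) and 5 in hy5-2 (19.8%), and 0 fell in each of the 3 arms. In hy5-2, KNAT1 and KNAT2 were lower at SIM8 without overlap, but did not pass (adjusted p = 0.066 and 0.0613). The steps share groups along a chain, so their counts are not independent. For the first step the members' share is near that of all genes, and it is not a result about the members.

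**Figure D1:**
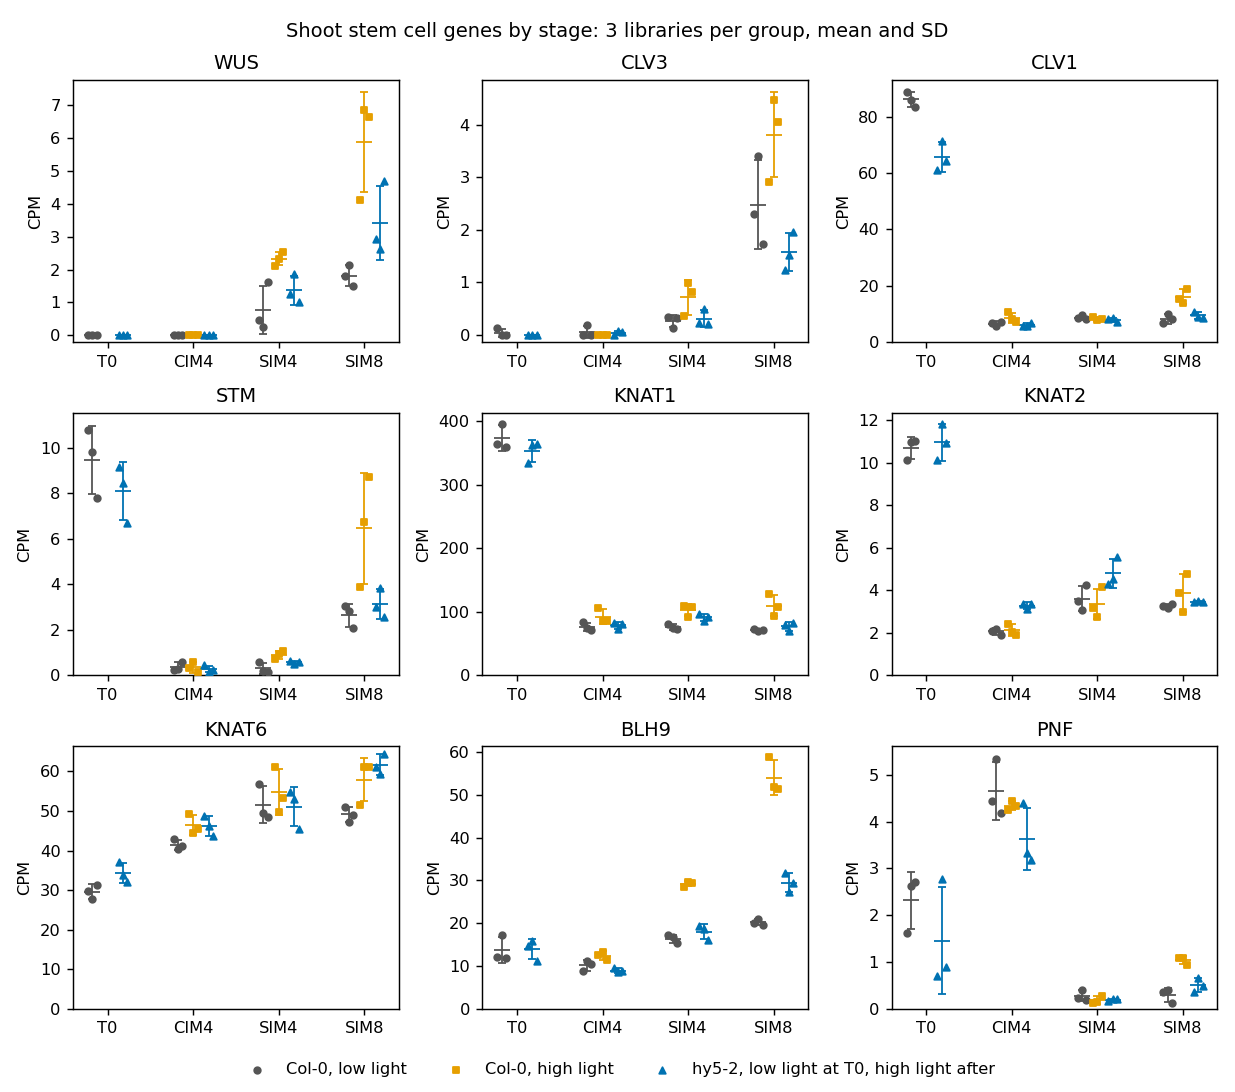
CPM of the 9 genes in each of 33 libraries (small symbols), with the mean and SD of 3 libraries, by culture stage on the x axis; every panel has its own y axis. WUS has 0 counts in all 15 libraries of T0 and CIM4, and at SIM8 the Col-0 libraries in high light lie above those in low light for WUS, CLV1, STM, KNAT1, KNAT6, BLH9 and PNF.

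Per length of exon, which allows genes to be set side by side, KNAT1 was the highest of the 9 in every group except hy5-2 at SIM8, from 185 CPM per kilobase in Col-0 at T0 down to 35.3 in Col-0 in low light at SIM8. In hy5-2 at SIM8 KNAT6 was higher, at 43.9 CPM per kilobase against 38.3 for KNAT1. At the other end, WUS reached 4.71 and CLV3 4.65 CPM per kilobase in Col-0 in high light at SIM8, the highest group mean of each. PNF never exceeded 2.10 CPM per kilobase, the value of Col-0 callus in low light. In the deposited table, on TAIR10, the genes lie as follows, with exon numbers from RefSeq. The first 4 are WUS at chr2:7808871-7810795 (minus strand, 3 exons), CLV3 at chr2:11664986-11665769 (minus strand, 3 transcripts whose exons merge into 1 block), CLV1 at chr1:28463462-28466971 (minus strand, 2 exons) and STM at chr1:23058582-23061722 (minus strand, 4 exons). The others are KNAT1 at chr4:5147700-5150966 (minus strand, 5 exons), KNAT2 at chr1:26576486-26582431 (plus strand, 5 exons), KNAT6 at chr1:8297291-8302651 (minus strand, 5 exons), BLH9 at chr5:395634-399041 (plus strand, 4 exons) and PNF at chr2:11921433-11924698 (minus strand, 4 exons). Of the 9, 0 overlap another locus of the table. Exon lengths came from the union of RefSeq transcripts, 820 bp for CLV3 and 3549 bp for CLV1. RefSeq ends differ from those of the counted loci, as for STM (23062063 against 23061722), so the order of close values is uncertain. An example is KNAT1 and KNAT6 in low light at SIM8 (35.3 and 34.9 CPM per kilobase).

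**Figure D2:**
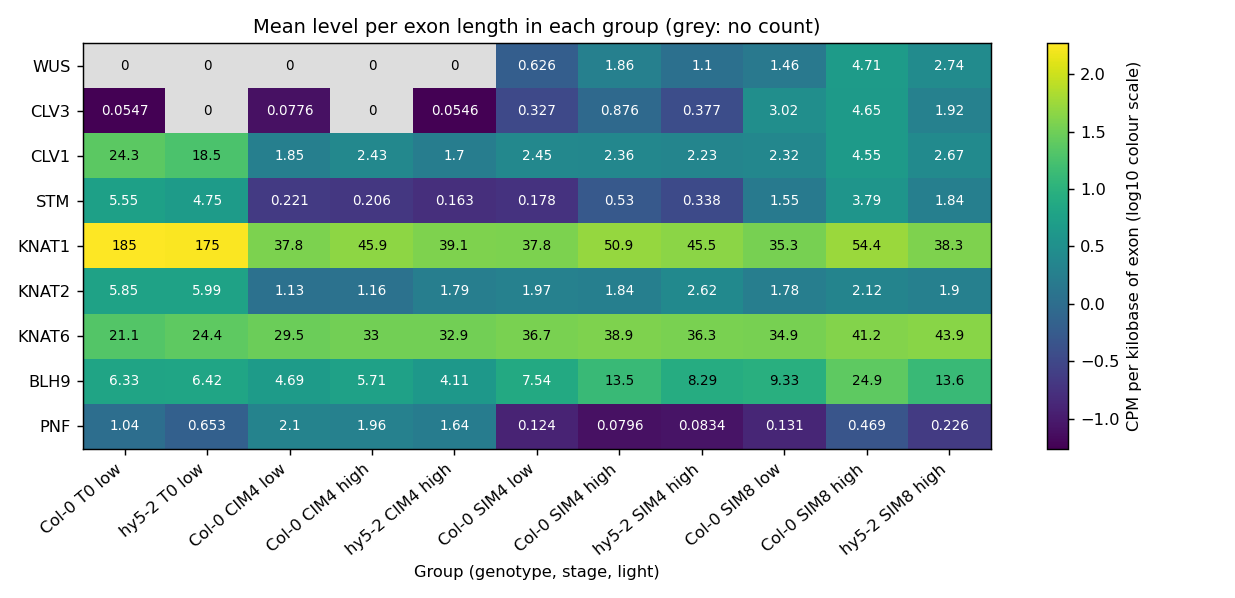
Mean CPM per kilobase of exon of each gene (rows) in the 11 groups (columns), with a log10 colour scale and the value printed in each cell; grey cells have no count. KNAT1 and KNAT6 make the bright rows in culture, and WUS is grey in all 5 groups of T0 and CIM4.

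WUS, the homeobox gene of the organizing centre, had 0 counts in each of the 15 libraries of T0 and CIM4. The floor of 3 counts over a group corresponds to 0.0689 to 0.141 CPM there, so a lower level could not have been seen. At SIM4 the counts were 4, 4 and 25 in Col-0 in low light, 18, 33 and 56 in Col-0 in high light, and 16, 19 and 10 in hy5-2. As CPM these were 0.464, 0.269 and 1.61 in low light, 2.12, 2.33 and 2.53 in high light, and 1.25, 1.86 and 1.01 in hy5-2. The 3 low-light libraries differ from each other, since replicate 3 holds most of the counts, yet all 3 lie below all 3 high-light libraries. Against the floor, WUS at SIM4 was at least 8.38-fold higher than at CIM4 in low light, at least 32.3-fold in high light and at least 20.0-fold in hy5-2, and it rose in all 3 arms (adjusted p = 0.000445, 3.14e-07 and 8.73e-06).

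At SIM8 the WUS counts were 15, 27 and 13 in low light, 34, 69 and 64 in high light, and 33, 24 and 48 in hy5-2. The means were 1.82 ± 0.318, 5.88 ± 1.52 and 3.42 ± 1.12 CPM (n = 3 each). WUS rose from SIM4 to SIM8 in high light by 1.32 ± 0.32 (adjusted p = 0.00381) and in hy5-2 by 1.31 ± 0.38 (adjusted p = 0.0171). The rise in hy5-2 missed the threshold without SIM4 replicate 1 (1.24, adjusted p = 0.0669), SIM4 replicate 3 (1.15, 0.0798) or SIM8 replicate 3 (1.02, 0.113), within a range of 0.00394 to 0.113 over all alternatives. In low light the change of 1.13 ± 0.45 did not pass (adjusted p = 0.108, range 0.00198 to 0.419), and without low-light SIM4 replicate 3 it passed at 2.39 (adjusted p = 0.00198).

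High light went with more WUS at both SIM stages. The difference in Col-0 was 1.49 ± 0.41 at SIM4 (adjusted p = 0.0154) and 1.68 ± 0.35 at SIM8 (adjusted p = 0.000779), with all 3 high-light libraries above all 3 low-light libraries each time. The SIM4 difference rests on few counts: it became 2.75 without low-light replicate 3 (adjusted p = 0.000218), and it missed the threshold without low-light replicate 1 (1.30, adjusted p = 0.0569) or 2 (1.01, 0.109), without high-light replicate 3 (1.42, 0.0662), and when only these 6 libraries were fitted (adjusted p = 0.0693). WUS in hy5-2 had lower means than Col-0 in high light, with log2 differences of -0.79 ± 0.32 at SIM8 (adjusted p = 0.0779) and -0.78 ± 0.39 at SIM4 (adjusted p = 0.191), and neither passed. At SIM8 the hy5-2 and Col-0 ranges overlap through replicate 3 of hy5-2 (4.71 CPM) and replicate 1 of Col-0 (4.13 CPM). The SIM8 difference did pass without either of these libraries (-1.09, adjusted p = 0.0363, and -0.98, adjusted p = 0.0408). It also passed with the replicate number as a block (-0.78, adjusted p = 0.0419) and with the 6 libraries fitted alone (-0.79, adjusted p = 0.0463), in a range of 0.0363 to 0.24.

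CLV3, the stem cell peptide, had 1 count over the 3 Col-0 libraries at T0, 0 in hy5-2 at T0, 2 in low-light callus, 0 in high-light callus and 2 in hy5-2 callus. At SIM4 the counts were 3, 2 and 5 in low light, 3, 14 and 18 in high light, and 3, 5 and 2 in hy5-2. These are at most 0.989 CPM in any library. High light at SIM4 was at least 9.97-fold above the floor of 3 counts at CIM4, a rise (adjusted p = 7.68e-06). In hy5-2, 10 counts against 2 gave a ratio of 6.64 (exact 95% interval 1.41 to 62.3, counting error alone). That was also a rise (log2 change 2.47 ± 0.92, adjusted p = 0.025). It missed the threshold without CIM4 replicate 1 (log2 change 2.01, adjusted p = 0.0818) or SIM4 replicate 2 (log2 change 2.02, 0.121), in a range of 0.0176 to 0.121. In low light, 10 counts against 2 gave a ratio of 4.12 (0.879 to 38.7). The log2 change of 1.87 ± 0.96 did not pass (adjusted p = 0.118, range 0.0217 to 0.378). Without CIM4 replicate 2, which holds both CIM4 counts, it did pass (log2 change 4.58, adjusted p = 0.0217).

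By SIM8 CLV3 counts were 19, 43 and 15 in low light, 24, 45 and 39 in high light, and 14, 14 and 20 in hy5-2. CLV3 rose from SIM4 to SIM8 in every arm, by 3.26 ± 0.45 in low light (adjusted p = 3.35e-06), 2.30 ± 0.34 in high light (adjusted p = 8.38e-06) and 2.32 ± 0.49 in hy5-2 (adjusted p = 0.00083). Means at SIM8 were 2.48 ± 0.848, 3.81 ± 0.805 and 1.58 ± 0.361 CPM. The light difference at SIM8, 0.59 ± 0.30, did not pass (adjusted p = 0.152), and the 2 ranges overlap (1.73 to 3.40 and 2.91 to 4.47 CPM). The light difference at SIM4 was 1.55 ± 0.53 (adjusted p = 0.0507), and it passed with the replicate number as a block (1.56, adjusted p = 0.0292; libraries of equal number vary together in this pair of groups) and without high-light replicate 1 (1.75, adjusted p = 0.0284), in a range of 0.0284 to 0.227. In hy5-2 at SIM8 CLV3 was lower than in Col-0 in high light (log2 difference -1.28 ± 0.32, adjusted p = 0.00329), and every hy5-2 library (1.24, 1.53 and 1.96 CPM) lay below every Col-0 library (2.91, 4.47 and 4.05 CPM).

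At SIM8 the order of means was high light, hy5-2, low light for WUS, and high light, low light, hy5-2 for CLV3. The difference in order lies between hy5-2 and low light, and that pair did not pass for either gene (log2 difference 0.89 ± 0.37, adjusted p = 0.198 for WUS, and -0.69 ± 0.34, adjusted p = 0.284 for CLV3). Over the 33 libraries the log2 CPM of WUS and CLV3 had a Pearson r of 0.916, a description of libraries in which both are near 0 at T0 and CIM4.

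CLV1, the receptor kinase, was highest in the uncultured hypocotyl. Its counts at T0 were 660, 658 and 524 in Col-0 and 442, 465 and 577 in hy5-2, or 86.1 ± 2.69 and 65.6 ± 5.23 CPM. In callus it fell to 6.57 ± 0.765 CPM in Col-0 in low light (log2 change -3.70 ± 0.13, adjusted p = 7.44e-23) and to 6.03 ± 0.612 CPM in hy5-2 (-3.44 ± 0.12, adjusted p = 2.65e-22). All cultured groups but one then lie between 6.03 and 9.48 CPM and overlap their neighbours in rank. The exception was Col-0 in high light at SIM8, with 15.4, 14.0 and 19.0 CPM, above every other cultured library. There CLV1 rose by 0.96 ± 0.13 from SIM4 (adjusted p = 2.06e-06), and it stood 0.94 ± 0.14 above low light (adjusted p = 3.08e-06) and above hy5-2 (hy5-2 minus Col-0 -0.76 ± 0.14, adjusted p = 6.79e-05).

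Smaller CLV1 changes also passed but depended on single libraries. From CIM4 to SIM4 CLV1 rose by 0.40 ± 0.15 in low light (adjusted p = 0.0319, range 0.029 to 0.151; 0.31 without CIM4 replicate 2 and 0.32 without SIM4 replicate 2, adjusted p = 0.151 and 0.144). In hy5-2 it rose by 0.39 ± 0.15 (adjusted p = 0.0309, range 0.0214 to 0.103), and the call was lost without replicate 1 or 2 of either stage (0.34 to 0.37, adjusted p = 0.0849 to 0.103). At T0 CLV1 was lower in hy5-2 (-0.39 ± 0.10, adjusted p = 0.0158, range 0.00418 to 0.119), with no overlap between 61.2 to 71.4 CPM and 83.5 to 88.9 CPM. That call was lost without Col-0 replicate 2 (-0.39, adjusted p = 0.0776) and without hy5-2 replicate 1 (-0.35, 0.119) or 3 (-0.38, 0.0759). In callus in high light it was lower in hy5-2, with a log2 difference of -0.51 ± 0.15 (adjusted p = 0.0145, range 0.00449 to 0.164). The callus call was lost without Col-0 replicate 1 (-0.34, adjusted p = 0.164), without hy5-2 replicate 1 (-0.47, 0.0508) or 2 (-0.46, 0.0661), and with the 6 libraries fitted alone (-0.52, 0.0502).

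STM, the class I KNOX gene needed for the shoot meristem, was present at T0 with 80, 75 and 49 counts in Col-0 and 66, 55 and 60 in hy5-2, 9.46 ± 1.51 and 8.09 ± 1.26 CPM. In callus it was close to absent: 2, 3 and 8 counts in low light, 4, 9 and 2 in high light, and 6, 2 and 4 in hy5-2. The fall was -4.53 ± 0.36 on the log2 scale in Col-0 in low light (adjusted p = 2.24e-13) and -4.81 ± 0.36 in hy5-2 (adjusted p = 6.24e-14). At SIM4 the counts were 5, 3 and 2 in low light, 6, 13 and 24 in high light, and 8, 5 and 6 in hy5-2. Of the 3 arms, STM rose from callus in high light (1.37 ± 0.47, adjusted p = 0.0143), with no overlap between callus and SIM4. That rise was 2.02 without CIM4 replicate 2 (adjusted p = 0.00514), and it missed the threshold without CIM4 replicate 3 (1.01, adjusted p = 0.096) or SIM4 replicate 3 (1.19, 0.0885). In low light (-0.62 ± 0.65, adjusted p = 0.477) and in hy5-2 (1.04 ± 0.57, adjusted p = 0.129) no change passed.

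At SIM8 STM counts were 25, 36 and 18 in low light, 32, 68 and 84 in high light, and 34, 35 and 26 in hy5-2, with means of 2.65 ± 0.505, 6.45 ± 2.44 and 3.13 ± 0.643 CPM. STM rose from SIM4 in all 3 arms, by 3.31 ± 0.44 in low light (adjusted p = 9.74e-07), 2.77 ± 0.29 in high light (adjusted p = 1.35e-08) and 2.41 ± 0.38 in hy5-2 (adjusted p = 1.3e-05). The group in high light at SIM8 (3.88, 6.75 and 8.73 CPM) overlapped those of Col-0 at T0 (7.81 to 10.8 CPM) and hy5-2 at T0 (6.69 to 9.14 CPM), while low light and hy5-2 at SIM8 stayed below both T0 groups. High light exceeded low light by 1.83 ± 0.51 at SIM4 (adjusted p = 0.0114) and by 1.29 ± 0.26 at SIM8 (adjusted p = 0.000269). The SIM4 difference ran from 1.44 to 2.45 over the alternatives and missed the threshold without low-light replicate 2 (1.66, adjusted p = 0.0645) or 3 (1.44, 0.122) or high-light replicate 3 (1.65, 0.0808). In hy5-2 STM was lower than in Col-0 in high light at SIM8 (-1.06 ± 0.26, adjusted p = 0.00192), where the largest hy5-2 value (3.82 CPM) was just under the smallest Col-0 value (3.88 CPM), and the SIM4 difference of -0.70 ± 0.45 did not pass (adjusted p = 0.323).

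The 4 class I KNOX genes are close relatives. The longest run of bases shared between transcripts of any 2 of the homeobox members was 41 bases, between KNAT2 and KNAT6. It lies in the part of the homeobox that encodes the DNA-recognition helix, and it is shown because reads that fall wholly within it cannot be assigned to one of the 2 genes. The handling of reads with several alignments is not given in the sources used here, so the exposure of KNAT2 and KNAT6 to each other's reads is unknown. The best ungapped match in each other KNOX or BELL member follows, from the RefSeq coding sequences of TAIR10.1, 5′ to 3′, with capitals for bases that differ from KNAT6.
KNAT6: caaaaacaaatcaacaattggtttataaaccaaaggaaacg
KNAT2: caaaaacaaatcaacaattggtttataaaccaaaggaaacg
KNAT1: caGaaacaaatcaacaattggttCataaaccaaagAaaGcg
STM: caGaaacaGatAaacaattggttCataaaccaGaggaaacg
BLH9: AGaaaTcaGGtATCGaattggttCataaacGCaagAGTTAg
PNF: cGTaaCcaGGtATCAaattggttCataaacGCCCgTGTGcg
KNAT1 shared 37 and STM 36 of the 41 bases, and the BELL genes BLH9 and PNF shared 24 and 23. The homeobox of WUS belongs to a different family and was not aligned. Outside that run no stretch of over 20 bases was shared by another pair of the homeobox members.

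KNAT1, also known as BREVIPEDICELLUS, was the most abundant member. It stood at 374 ± 19.9 CPM in Col-0 against 354 ± 17.2 CPM in hy5-2 at T0, with 2258 to 3271 counts in each library. In callus it fell to 76.3 ± 6.35 CPM in Col-0 in low light (-2.30 ± 0.10, adjusted p = 1.56e-20) and 78.8 ± 5.61 CPM in hy5-2 (-2.17 ± 0.09, adjusted p = 4.35e-20). After that it changed little with stage. Of the later steps, CIM4 to SIM4 in hy5-2 passed (0.22 ± 0.09, adjusted p = 0.0481), and it missed the threshold in 6 of 11 alternatives (range 0.01 to 0.204). Those were RLE scaling (0.21, adjusted p = 0.0617), DESeq2 (0.21, 0.0697), and the fits without CIM4 replicate 2 (0.16, 0.204) or 3 (0.24, 0.0614) and without SIM4 replicate 1 (0.18, 0.174) or 3 (0.21, 0.0951). From SIM4 to SIM8 in hy5-2 the change was -0.25 ± 0.09 (adjusted p = 0.066, range 0.0192 to 0.303), with no overlap. It passed with the replicate number as a block (-0.25, adjusted p = 0.0199) and with the 6 libraries alone (-0.25, 0.0192). Without SIM8 replicate 3 it passed as well (-0.30, adjusted p = 0.0474).

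KNAT1 differed with light on SIM. In low light it was 81.3, 74.0 and 73.1 CPM at SIM4 and 72.7, 69.3 and 71.2 CPM at SIM8. In high light it was 109, 91.9 and 107 CPM at SIM4 and 128, 94.2 and 107 CPM at SIM8, with no overlap at either stage. The differences were 0.43 ± 0.09 at SIM4 (adjusted p = 0.000906) and 0.62 ± 0.10 at SIM8 (adjusted p = 4.37e-06), and 0.28 ± 0.09 at CIM4, which did not pass (adjusted p = 0.0608, range 0.0155 to 0.379). The CIM4 difference did pass with the replicate number as a block (0.28, adjusted p = 0.0155). Leaving out low-light replicate 1 (0.35, adjusted p = 0.0379) or high-light replicate 2 (0.33, 0.0455) or 3 (0.33, 0.0484) also made it pass. In hy5-2 KNAT1 was 79.3, 69.2 and 83.2 CPM at SIM8, below all 3 Col-0 libraries in high light (-0.50 ± 0.09, adjusted p = 0.000123). At CIM4 the hy5-2 difference was -0.23 ± 0.09 (adjusted p = 0.0905), and with the replicate number as a block, for libraries of equal number that vary together, it passed (-0.23, adjusted p = 0.0299, in a range of 0.0299 to 0.481). At SIM4 it was -0.16 ± 0.09 (adjusted p = 0.262).

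KNAT2 fell from 10.7 ± 0.512 CPM in Col-0 against 10.9 ± 0.859 CPM in hy5-2 at T0 to 2.07 ± 0.152 CPM in low-light callus (-2.37 ± 0.18, adjusted p = 7.34e-14) and 3.28 ± 0.147 CPM in hy5-2 callus (-1.73 ± 0.16, adjusted p = 5.5e-12). It rose on SIM4 in each arm, by 0.82 ± 0.19 in low light (adjusted p = 0.000786), 0.71 ± 0.18 in high light (adjusted p = 0.00156) and 0.54 ± 0.17 in hy5-2 (adjusted p = 0.00685). The high-light rise was 0.47 without SIM4 replicate 3 (adjusted p = 0.102, range 0.00046 to 0.102), and the hy5-2 rise was 0.42 without SIM4 replicate 3 (adjusted p = 0.0568, range 0.00484 to 0.0568). From SIM4 to SIM8 no change of KNAT2 passed. The nearest was in hy5-2, -0.46 ± 0.17 (adjusted p = 0.0613, range 0.0489 to 0.279), with no overlap. With the replicate number as a block it passed (-0.46, adjusted p = 0.0489). KNAT2 did not differ detectably with light at CIM4, SIM4 or SIM8 (0.04 ± 0.21, -0.07 ± 0.17 and 0.25 ± 0.19, adjusted p = 0.968, 0.927 and 0.383).

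KNAT2 was the one member that passed as higher in hy5-2 than in Col-0 in high light. In high-light callus Col-0 had 2.44, 2.05 and 1.88 CPM and hy5-2 had 3.36, 3.11 and 3.37 CPM, a difference of 0.63 ± 0.18 (adjusted p = 0.0154, range 0.0114 to 0.0694). That call was lost without Col-0 replicate 2 (0.61, adjusted p = 0.0585) or 3 (0.55, 0.0694) and without hy5-2 replicate 3 (0.61, 0.0597). At SIM4 Col-0 had 3.18, 2.75 and 4.15 CPM and hy5-2 had 4.31, 4.51 and 5.57 CPM, 0.46 ± 0.17 (adjusted p = 0.0435, range 0.00735 to 0.287), and this was lost in 7 of 11 alternatives. They were the fit without a low-count filter (0.46, adjusted p = 0.092), DESeq2 (0.47, 0.0908), the 6 libraries alone (0.45, 0.166), and the fits without Col-0 replicate 1 (0.42, 0.117) or 2 (0.33, 0.273) or hy5-2 replicate 2 (0.49, 0.0689) or 3 (0.35, 0.287), while without Col-0 replicate 3 it was 0.70 (0.00735). At SIM8 the difference was -0.16 ± 0.19 (adjusted p = 0.612).

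KNAT6, by contrast with the other KNOX genes, was higher in culture than before it. It stood at 29.6 ± 1.85 CPM in Col-0 against 34.3 ± 2.55 CPM in hy5-2 at T0 and rose in callus by 0.49 ± 0.09 in Col-0 in low light (adjusted p = 1.39e-05) and by 0.43 ± 0.09 in hy5-2 (adjusted p = 3.5e-05). The low-light callus value was 41.5 ± 1.29 CPM, and it rose again at SIM4 to 51.6 ± 4.6 CPM (0.31 ± 0.08, adjusted p = 0.00229). In high light the rise from CIM4 to SIM4 was 0.23 ± 0.08 (adjusted p = 0.0149, range 0.00518 to 0.104), lost without CIM4 replicate 2 (0.20, adjusted p = 0.0675), without SIM4 replicate 1 (0.16, 0.104) and with the 6 libraries alone (0.22, 0.0518). In hy5-2 the rise came from SIM4 to SIM8 (0.27 ± 0.08, adjusted p = 0.0141, range 0.0046 to 0.136), and was lost without SIM4 replicate 3 (0.19, adjusted p = 0.136) or SIM8 replicate 3 (0.24, 0.0704). Its light difference at SIM8 was the smallest that passed, 0.24 ± 0.08 (adjusted p = 0.0249, range 0.00501 to 0.107): 50.9, 47.3 and 49.1 CPM in low light against 51.6, 61.2 and 61.1 CPM in high light. It was lost without low-light replicate 2 (0.21, adjusted p = 0.101) or 3 (0.25, 0.0525), without high-light replicate 2 (0.21, 0.0964) or 3 (0.21, 0.107), and with the 6 libraries alone (0.25, 0.0622). No difference between hy5-2 and Col-0 in high light passed for KNAT6, and at SIM8 hy5-2 (61.2, 59.4 and 64.5 CPM) overlapped Col-0.

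BLH9, a BELL partner of the KNOX proteins, rose on SIM and was higher in high light. Its means at T0 were 13.7 ± 3.05 CPM in Col-0 against 13.9 ± 2.37 CPM in hy5-2. It fell in callus, with a log2 change of -0.43 ± 0.13 in Col-0 in low light (adjusted p = 0.00428, range 0.00113 to 0.108; -0.25 and 0.108 without T0 replicate 2) and of -0.63 ± 0.13 in hy5-2 (adjusted p = 5.92e-05). From CIM4 to SIM4 it rose by 0.67 ± 0.12 in low light (adjusted p = 2.47e-05), 1.24 ± 0.11 in high light (adjusted p = 1.07e-11) and 1.02 ± 0.12 in hy5-2 (adjusted p = 7.32e-09). From SIM4 to SIM8 it rose by 0.88 ± 0.10 in high light (adjusted p = 2.36e-08) and 0.71 ± 0.11 in hy5-2 (adjusted p = 6.34e-06). In low light that step was 0.32 ± 0.11 (adjusted p = 0.052), and it passed with the replicate number as a block, these groups being ones whose equal numbers vary together (0.31, adjusted p = 0.0275), and with the 6 libraries alone (0.30, 0.0475), in a range of 0.0275 to 0.216.

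At SIM8 the low-light libraries held 20.1, 21 and 19.6 CPM of BLH9, those in high light 58.9, 51.9 and 51.4 CPM, and hy5-2 had 31.7, 27.4 and 29.3 CPM. The 3 arms do not overlap, and the hy5-2 arm lies between the Col-0 arms. High light exceeded low light by 0.84 ± 0.10 at SIM4 (adjusted p = 1.53e-07) and by 1.41 ± 0.10 at SIM8 (adjusted p = 1.05e-12), and by 0.28 ± 0.12 at CIM4, which did not pass (adjusted p = 0.206). hy5-2 was below Col-0 in high light at all 3 cultured stages, with log2 differences of -0.48 ± 0.12 at CIM4, -0.70 ± 0.10 at SIM4 and -0.87 ± 0.10 at SIM8 (adjusted p = 0.00546, 4.04e-06 and 1.62e-08). At T0, where both genotypes were in low light, no difference was detected (-0.01 ± 0.14, adjusted p = 1).

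PNF, the close relative of BLH9, went the other way with medium. It rose in callus, from 2.31 ± 0.605 to 4.65 ± 0.612 CPM in Col-0 in low light (1.01 ± 0.27, adjusted p = 0.0011) and from 1.45 ± 1.14 to 3.63 ± 0.659 CPM in hy5-2 (1.38 ± 0.30, adjusted p = 8.52e-05; 2.13 without T0 replicate 2, which holds 18 of the 31 counts of its group). At SIM4 it was down to 2, 6 and 3 counts in low light, 1, 2 and 6 in high light and 2 in each hy5-2 library. The fall from callus was -3.99 ± 0.35 on the log2 scale in low light (adjusted p = 2.12e-11), -4.37 ± 0.36 in high light (adjusted p = 3.48e-12) and -4.22 ± 0.41 in hy5-2 (adjusted p = 1.11e-10). At SIM8 the counts were 3, 5 and 1 in low light, 9, 11 and 9 in high light, and 4, 6 and 5 in hy5-2. PNF rose from SIM4 to SIM8 in high light (2.32 ± 0.49, adjusted p = 0.000604) and was then above low light by 1.74 ± 0.50 (adjusted p = 0.00801), on fewer than 30 counts per group. The hy5-2 difference at SIM8, -1.06 ± 0.45, did not pass (adjusted p = 0.0839).

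The light comparison in Col-0 asks how much of this depends on light intensity. Of the 9 members, 0 passed at CIM4, against 8.29% of all genes in either direction (1727 genes). At CIM4 3 members had an unadjusted p under 0.05 in edgeR's quasi-likelihood test: KNAT1, CLV1 and BLH9, with differences of 0.28, 0.38 and 0.28 (adjusted p = 0.0608, 0.134 and 0.206). DESeq2 also called 0 members there, and in the 4 other comparisons below in which 0 members passed. In other alternatives at CIM4, KNAT1 passed as given above, and CLV1 passed without high-light replicate 3 (0.50, adjusted p = 0.0492). At SIM4 4 members were higher in high light (WUS, STM, KNAT1 and BLH9) and 0 lower, against 9.09% of all genes higher and 13.5% in either direction. At SIM8 7 were higher and 0 lower, against 16.0% of all genes higher and 27.6% in either direction, and CLV3 and KNAT2 were those that did not pass. The median log2 difference of the 9 members was 0.43 and 0.94 at SIM4 and SIM8, against -0.02 and -0.01 over all tested genes. No median is given at CIM4, where WUS had no count and CLV3 had 2 in all. The light effect at SIM8 was larger than at SIM4 for CLV1 (difference of log2 effects 1.02 ± 0.20, adjusted p = 0.00296) and BLH9 (0.57 ± 0.15, adjusted p = 0.0272), 2 of 9 members against 2.79% of all genes. Compared with CIM4 it was larger at SIM8 for BLH9 (1.14 ± 0.16, adjusted p = 1.3e-05) and PNF (1.83 ± 0.55, adjusted p = 0.0258), 2 of 9 against 10.6%. Between CIM4 and SIM4 0 members passed (1.39% of all genes), with BLH9 nearest (0.57 ± 0.16, adjusted p = 0.0755) and CLV3, CLV1, STM and BLH9 at an unadjusted p under 0.05 (0.0277, 0.0352, 0.0199 and 0.0014). For WUS, at 0 in callus, no such difference can be given.

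Markers of some other cell types moved with light at SIM8. All 6 xylem markers were higher in high light there, against 16.0% of all genes. Their summed level was 141.1 to 171.1 CPM in low light, 287.4 to 331.4 in high light and 197.6 to 263.9 in hy5-2, and none of the 6 was at 0. At SIM4 0 of the 6 passed, against 13.5% of all genes, and the sums overlapped (470.1 to 643.5 CPM in low light and 519.6 to 574.4 in high light). Summed boundary markers (CUC1, CUC2, CUC3) were 31.5 to 39.2 CPM in low light, 51.1 to 51.4 in high light and 34.2 to 42.5 in hy5-2 at SIM8, and CUC1 was higher in high light (0.88 ± 0.19, adjusted p = 0.000515). Summed epidermis markers (ATML1, PDF1 and FDH) were 12.7 to 15.1 CPM in low light, 19.0 to 32.5 in high light and 14.2 to 16.3 in hy5-2 at SIM8, with high light above both others, and 1 of 3 passed (PDF1, 2.51 ± 0.63, adjusted p = 0.00359). Summed leaf primordium markers (FIL, YAB3 and KAN1) at SIM8 were 3.48 to 4.73 CPM in low light, 4.67 to 8.83 in high light and 5.69 to 8.73 in hy5-2. The sums of the Col-0 lights overlapped, and those of hy5-2 lay within the high-light range. Of these markers, YAB3 had 0 counts in low light at SIM8 and 23 in high light. Markers of the root stem cell niche (WOX5, PLT1 and PLT2) went the other way at SIM4, where 3 of 3 were lower in high light (4.39% of all genes) and 3 of 3 higher in hy5-2 (10.4%). The part of these cell types in the members' differences was not tested.

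The mutant comparison asks what changes without HY5 function. At T0, in low light, 1 of 9 members passed (CLV1, lower), against 5.12% of all genes. In high light 3 passed at CIM4 (CLV1 and BLH9 lower, KNAT2 higher; 15.5% of all genes), 2 at SIM4 (BLH9 lower, KNAT2 higher; 20.4%) and 5 at SIM8 (CLV3, CLV1, STM, KNAT1 and BLH9, all lower; 13.4% of all genes were lower and 23.5% differed in either direction). The median log2 difference of the members at SIM8 was -0.79, against 0.01 over all tested genes. Of the xylem markers, 4 of 6 were lower in hy5-2 at SIM8 (13.4% of all genes) and 5 of 6 at CIM4 (9.15%), and 2 of 3 boundary markers and 1 of 3 epidermis markers (PDF1, -1.82 ± 0.56, adjusted p = 0.0194) were lower at SIM8. Their part in the members' differences was not tested. The hy5-2 effect at SIM8 differed from that at CIM4 for KNAT2 alone (difference -0.79 ± 0.26, adjusted p = 0.0407; 12.9% of all genes), and the call was lost in 12 of 17 alternatives (range 0.0125 to 0.205). Between CIM4 and SIM4, and between SIM4 and SIM8, 0 members passed (7.36% and 0.523% of all genes). At an unadjusted p under 0.05 there was CLV1 for the first (0.0391), and CLV1, KNAT1 and KNAT2 for the second (0.00154, 0.0153 and 0.0214).

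**Figure D3:**
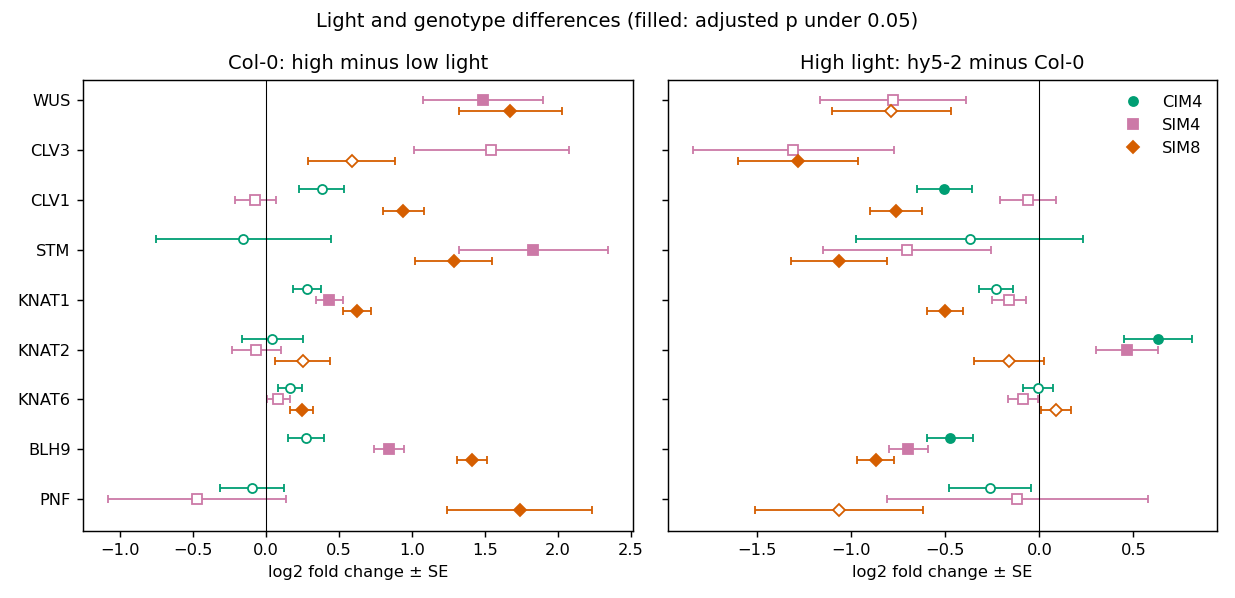
Log2 fold change ± SE of each gene (rows) for high against low light in Col-0 (left) and hy5-2 against Col-0 in high light (right), at CIM4, SIM4 and SIM8; filled symbols passed at adjusted p under 0.05, and pairs with 3 counts or fewer in a group are left out. At SIM8 the light differences lie right of 0, from 0.24 to 1.74, and the genotype differences left of 0 except KNAT6.

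Both comparisons use the same Col-0 libraries in high light, so their opposite signs are not independent of each other. Set directly against Col-0 in low light, hy5-2 in high light differed in KNAT2 at CIM4 (0.67 ± 0.19, adjusted p = 0.0214; 1 of 9 against 10.6% of all genes), in 0 members at SIM4 (8.02%), and in KNAT6 and BLH9 at SIM8 (2 of 9 against 6.83%). The KNAT2 call was lost with DESeq2 (0.68, adjusted p = 0.0546), without low-light replicate 2 (0.72, 0.0531) or 3 (0.61, 0.107) and without hy5-2 replicate 1 (0.66, 0.0505) or 3 (0.65, 0.0739), in a range of 0.0142 to 0.107. At SIM4 the nearest was KNAT1 (0.27 ± 0.09, unadjusted p = 0.00692, adjusted p = 0.0729), which passed with the replicate number as a block (0.27, adjusted p = 0.0203, for a pair of groups whose equal numbers vary together) and with the 6 libraries alone (0.27, 0.0345), in a range of 0.0203 to 0.246; KNAT2 also had an unadjusted p under 0.05 (0.0244). At SIM8 BLH9 was higher in hy5-2 in high light by 0.54 ± 0.11 (adjusted p = 0.00089) and KNAT6 by 0.33 ± 0.08 (adjusted p = 0.00763; 0.30 and 0.0533 without low-light replicate 2, in a range of 0.00217 to 0.0533). For STM this difference was 0.22 ± 0.29 and for KNAT1 0.12 ± 0.10 (adjusted p = 0.785 and 0.592), which does not show that the 2 conditions are alike.

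Upstream sequence is shown for STM, WUS and BLH9, the members with the largest light differences that passed at SIM4. Each line gives the 250 bases before the RefSeq transcript start in TAIR10.1, 5′ to 3′ on the gene's strand: chr1:23062064-23062313 (minus strand) for STM, chr2:7810812-7811061 (minus strand) for WUS, and chr5:395317-395566 (plus strand) for BLH9. In the deposited table these genes begin elsewhere, at 23061722, 7810795 and 395634. Windows drawn from those starts would differ, and for STM would not overlap the one shown. Capitals mark ACGT, the core bound by HY5 and other bZIP factors, and AGATT or its reverse complement AATCT, a core of the type-B ARR factors of cytokinin response.
STM: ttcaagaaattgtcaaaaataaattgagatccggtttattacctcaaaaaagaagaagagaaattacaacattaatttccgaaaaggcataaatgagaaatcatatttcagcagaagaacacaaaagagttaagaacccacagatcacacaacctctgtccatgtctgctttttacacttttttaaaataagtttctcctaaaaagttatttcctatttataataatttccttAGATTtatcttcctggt
WUS: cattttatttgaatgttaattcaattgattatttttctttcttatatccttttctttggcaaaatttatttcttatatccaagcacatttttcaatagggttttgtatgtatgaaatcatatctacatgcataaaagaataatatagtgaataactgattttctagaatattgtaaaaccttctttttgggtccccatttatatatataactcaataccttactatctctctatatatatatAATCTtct
BLH9: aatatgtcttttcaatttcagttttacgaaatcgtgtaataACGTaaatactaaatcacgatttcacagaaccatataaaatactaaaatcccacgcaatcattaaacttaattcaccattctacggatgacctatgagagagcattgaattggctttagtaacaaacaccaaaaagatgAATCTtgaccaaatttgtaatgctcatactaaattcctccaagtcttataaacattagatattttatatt
On both strands, ACGT occurred in the windows of 3 of 9 members (CLV3, CLV1 and BLH9) and in 44.1% of 27443 windows of the same length, and AGATT in 7 of 9 (all but CLV3 and KNAT1) and in 63.7%. The G-box CACGTG, which contains ACGT, occurred in 0 of 9 and 6.49%, and TGACAG, a motif of KNOX and BELL proteins, in 0 of 9 and 5.86%. A match is a description of letters, and a window without one says nothing of the factor.

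Among other genes of the pathway, the CLAVATA co-receptors and their downstream phosphatases (CLV2, CRN, BAM1, BAM2, BAM3, RPK2, POL and PLL1) responded little to light or genotype. In high light 1 of 8 was lower at CIM4, 0 differed at SIM4 and 1 was higher at SIM8 (BAM1, 0.29 ± 0.07, adjusted p = 0.0034), and between hy5-2 and Col-0 0 of 8 passed at each of the 4 stages. All genes called in either direction were 8.29%, 13.5% and 27.6% for light at CIM4, SIM4 and SIM8, and 5.12%, 15.5%, 20.4% and 23.5% for genotype at T0, CIM4, SIM4 and SIM8. From T0 to callus in low light 6 of 8 rose and 1 fell, a share near the 79.1% of all genes that changed. Of the HAM genes, GRAS factors that act with WUS, 0 of 4 differed with light at any stage, while HAM1 was higher in hy5-2 at CIM4 (0.43 ± 0.12, adjusted p = 0.0144) and HAM1 and HAM3 at SIM4 (0.44 ± 0.12 and 0.50 ± 0.13, adjusted p = 0.00726 and 0.00425), against 6.37% and 10.4% of all genes higher at these stages.

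Other BELL genes moved with light as BLH9 did in more than one case. Of the 9 tested (of 11 listed; BLH5 and BLH11 did not pass the count filter), 2 were higher in high light at CIM4 (5.14% of all genes were higher), 6 at SIM4 (9.09%) and 5 at SIM8 (16.0%), and 0 were lower. ATH1, a BELL partner of STM and KNAT1, had 14, 21 and 17 counts in low light, 103, 147 and 185 in high light and 57, 50 and 40 in hy5-2 at SIM8. That is 1.77 ± 0.164, 15.4 ± 3.44 and 4.82 ± 0.799 CPM, a light difference of 3.13 ± 0.28 (adjusted p = 7.08e-11) and a genotype difference of -1.68 ± 0.23 (adjusted p = 8.75e-07), with no overlap. BLH6, a gene of secondary wall control, was higher in high light by 3.07 ± 0.30 (adjusted p = 6.65e-10) and lower in hy5-2, a log2 difference of -2.13 ± 0.26 (adjusted p = 7.13e-08) at SIM8, where the xylem markers moved as given above. In hy5-2 5 of 9 were lower at CIM4 (9.15% of all genes were lower), 2 at SIM4 (2085 of 20842 genes) and 4 at SIM8 (13.4%), and 0 higher. All 9 fell from T0 to callus in both genotypes, among 79.1% and 80.9% of all genes that changed.

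Of the other KNOX genes, 4 of 5 were tested (KNATM was not), all of class II. At SIM8 KNAT4 was higher (0.59 ± 0.14, adjusted p = 0.0012) and KNAT5 lower (-0.31 ± 0.06, adjusted p = 0.000242) in high light, and 3 of 4 were lower in hy5-2 at CIM4, against 9.15% of all genes. Among genes known to repress KNOX genes in leaves (AS1, AS2, BOP1 and BOP2; AS2 not tested), BOP2 was lower in hy5-2 at every stage. BOP2 stood at 32.1 ± 0.518 CPM in Col-0 against 22.9 ± 2.47 CPM in hy5-2 at T0 (-0.48 ± 0.11, adjusted p = 0.00495), and at 14.5 ± 1.25 and 4.06 ± 0.416 CPM in high light at SIM8 (-1.82 ± 0.14, adjusted p = 6.53e-12), with no overlap either time. AS1 was higher in high light (0.36 ± 0.09, adjusted p = 0.00327) and lower in hy5-2 (-0.43 ± 0.09, adjusted p = 0.000644) at SIM8.

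Of 8 hormone genes that KNOX proteins or WUS are known to act on, 4 were lower in high light at SIM8, against 11.6% of all genes, and 3 higher in hy5-2, against 2113 of 20842 genes. They include the type-A response regulators ARR5, lower in high light with a log2 difference of -0.27 ± 0.06 and higher in hy5-2 by 0.40 ± 0.06 (adjusted p = 0.00125 and 6.9e-06), ARR15, lower in high light (-0.46 ± 0.09, adjusted p = 0.000124), and ARR6, higher in hy5-2 (0.38 ± 0.06, adjusted p = 4.05e-06). These are genes of negative feedback in cytokinin signalling.

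The genes with a symbol whose log2 CPM over the 33 libraries was most like each member, among 8917, were as follows, given as a description with Pearson r. For WUS they were HB5 (0.965), RTFL7 (0.962) and MEE9 (0.96), and for CLV3 BCS1 (0.935), LSH2 (0.931) and PP2C52 (0.927). For CLV1 they were KCS19 (0.985), DJ1F (0.979) and LTL1 (0.979), for STM LOL1 (0.972), CuAO1 (0.959) and CYP708A3 (0.944), and for KNAT1 ASP5 (0.989), BAG1 (0.986) and PLC2 (0.985). For KNAT2 they were IQD1 (0.963), ATP-PRT1 (0.955) and RKL1 (0.955), for KNAT6 EXL3 (0.935), SRFR1 (0.933) and PDIL2-2 (0.926), for BLH9 RLP32 (0.935), CT-BMY (0.932) and WRKY13 (0.932), and for PNF ICR1 (0.929), P5CS1 (0.923) and ZPR4 (0.913). Among the members themselves, CLV1 and KNAT1 had the highest r (0.964), followed by WUS and CLV3. The libraries share 4 stages, and likeness within a stage was not tested.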

How the data were processed

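The deposited values are whole-number read counts per locus for 33 libraries, made by the authors and not normalized. Per the submitters' processing notes, STAR, SAMtools, bedtools and edgeR were used with TAIR10, and per the labels' protocols libraries came from a stranded mRNA kit. The strand setting is not given in the sources used here, nor are versions. Counts were tested in R 4.3.3 with edgeR 4.0.16 (filterByExpr with a minimum count of 10 and minimum total of 15, TMM scaling, glmQLFit and glmQLFTest with robust dispersion, 1 coefficient for each of 11 groups, Benjamini-Hochberg adjustment in each of 24 contrasts). This left 20842 genes, with a common biological coefficient of variation of 0.075. Fold bounds use a floor of 3 counts over a group, and count intervals are exact at 95% and cover counting error only.

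The members, pathway lists and marker lists were chosen with earlier results of these data known. All 9 members are named throughout, and from each pathway list up to 2 genes per direction and contrast with the smallest adjusted p. Same-numbered libraries were checked for shared deviations: all 3 correlations exceeded 0.1 in 7 of 18 contrasts, over a range of -0.061 to 0.376. Those 7 were CIM4 to SIM4 and SIM4 to SIM8 in low light, light at SIM4, genotype at T0, CIM4 and SIM4, and hy5-2 against low light at SIM4. The main fit had no replicate block, so calls and counts of members ignore this pairing unless the block is named. In those 7, the block added a call of CLV3 for light at SIM4 and of BLH9 from SIM4 to SIM8 in low light. It also added KNAT1 for genotype at CIM4 and for hy5-2 against low light at SIM4. Alternatives were RLE scaling, no low-count filter, a replicate block, DESeq2 1.42.0, the groups of a contrast alone, and each library left out. Sequences and exon lengths are from RefSeq TAIR10.1, in which 26714 of 27261 protein-coding loci of the table were found, all on the same chromosome and strand. Both ends were identical for 5083 of them.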

Additional observations from a re-analysis of the deposited data

Results flagged for a closer look

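Each effect below differed between stages by a test of the difference itself. The light effect in Col-0 was larger at SIM8 than at CIM4 for BLH9 (1.14 on the log2 scale, adjusted p = 1.3e-05) and for PNF (1.83, adjusted p = 0.0258). The PNF difference was lost without low-light CIM4 replicate 2 (1.72, adjusted p = 0.0521) or low-light SIM8 replicate 3 (1.52, 0.0944), in a range of 0.0175 to 0.0944. The light effect was larger at SIM8 than at SIM4 for CLV1 (1.02, adjusted p = 0.00296) and for BLH9 (0.57, adjusted p = 0.0272). The BLH9 difference was lost without any 1 of 7 libraries (adjusted p from 0.0511 to 0.0712, in a range of 0.00862 to 0.0712). These were low-light replicates 1 and 2 and high-light replicates 1 and 3 at SIM4, and low-light replicates 1 and 3 and high-light replicate 1 at SIM8. The effect of hy5-2 on KNAT2 turned from higher at CIM4 to no call at SIM8, a difference of -0.79 (adjusted p = 0.0407, range 0.0125 to 0.205). It was lost without a low-count filter (adjusted p = 0.0793), with DESeq2 (0.0937), with the groups alone (0.0924) and without any 1 of 9 of the 12 libraries (0.0608 to 0.205).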

How the results depend on the processing

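Over 1801 alternative values for changes of single members, 1682 kept their direction and side of the threshold, 83 lost a call, 35 gained one and 1 reversed. Left out were changes between groups with at most 3 counts each, and uncalled changes smaller than their SE. The reversal was KNAT1 from SIM4 to SIM8 in Col-0 in high light, 0.09 with all libraries and from -0.033 to 0.19 with 1 library left out (-0.033 without high-light SIM8 replicate 1), with no call either way. With the replicate block, the members that passed were 1 instead of 0 for light at CIM4, for hy5-2 against low light at SIM4, and for the light effect at SIM4 against CIM4. The block gained 10 calls in all and lost 0. For hy5-2 against Col-0 at SIM4, 1 member passed instead of 2 without a low-count filter, with DESeq2 and with the groups alone. For hy5-2 against low light, 0 instead of 1 passed at CIM4 with DESeq2, and 1 instead of 0 at SIM4 with the groups alone. For the hy5-2 effect at SIM8 against CIM4, 0 instead of 1 passed without a filter, with DESeq2 and with the groups alone. Leaving out 1 library, the members that passed ran from 3 to 5 for SIM4 to SIM8 in hy5-2, 0 to 2 for light at CIM4, 2 to 5 for light at SIM4, and for hy5-2 against Col-0 0 to 2 at T0 and 1 to 2 at SIM4. They ran from 0 to 1 at CIM4, 0 to 1 at SIM4 and 1 to 2 at SIM8 for hy5-2 against low light. For differences of the light effect they ran from 0 to 1 (SIM4 against CIM4), 1 to 4 (SIM8 against CIM4) and 1 to 2 (SIM8 against SIM4), and for the hy5-2 effect at SIM8 against CIM4 from 0 to 1. The cause was not tested. Over all genes, counts moved by over 1.5 times in 8 contrasts. They were SIM4 to SIM8 in high light (4673 genes, 3066 with the groups alone), hy5-2 against Col-0 at T0 (1067, 384 to 1726 with 1 library left out) and CIM4 (3235, down to 1971), and hy5-2 against low light at CIM4 (2202, down to 1166) and SIM8 (1424, down to 944). The others were the light effect at SIM4 against CIM4 (289, 520 with the block, down to 149 with 1 library left out) and SIM8 against SIM4 (581, 930 with the block, 308 with the groups alone, 379 without high-light SIM8 replicate 3), and the hy5-2 effect at SIM8 against SIM4 (109, 269 with the block, 241 with DESeq2, 39 to 169 with 1 library left out). WUS, CLV3, STM, KNAT2 and PNF have fewer than 100 counts in each library, and depth limits their smaller differences.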
